A study of Mus musculus with 10 samples.

Results

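This account covers 9 genes through which mineralocorticoid hormone controls sodium uptake at the end of the nephron, taken by symbol from a table of 24062 genes of mouse kidney. They are the sodium channel subunit genes Scnn1a, Scnn1b and Scnn1g, the steroid receptor genes Nr3c2 and Nr3c1, the enzyme gene Hsd11b2, the kinase gene Sgk1, the ubiquitin ligase gene Nedd4l and the steroid-induced gene Tsc22d3. All 9 had rows in the table and passed the filter on low counts. Kidneys of mice with and without a working Ehhadh gene, which encodes a peroxisomal enzyme of fatty acid breakdown, were compared. The C57BL/6N animals were adult males, 4 lacking Ehhadh (KO) and 4 with it (WT), and 1 further wild-type kidney each came from 129S2_SvPasCrl and DBA_2J, with 1 polyadenylated RNA library per animal. WT below means the 4 C57BL/6N animals. The labels give genotype and strain, and no treatment, diet, litter or exact age, and neither the age nor the sex of the animals of the other strains. They do not say how the Ehhadh allele was made.

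The epithelial sodium channel ENaC sits in the apical membrane of principal cells and of the connecting tubule, and is built from an α, a β and a γ subunit. Aldosterone binds the mineralocorticoid receptor in these cells, and the receptor then raises transcripts such as that of the kinase SGK1. SGK1 phosphorylates the ubiquitin ligase NEDD4L, which otherwise removes ENaC from the membrane. The glucocorticoid receptor recognises the same DNA element, and the enzyme encoded by Hsd11b2 inactivates glucocorticoid so that aldosterone can occupy the mineralocorticoid receptor.

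That shared element is a palindrome of the core TGTTCT and its reverse complement AGAACA with 3 bases between them, AGAACA first, and was searched on both strands. RefSeq promoter windows (GRCm38.p6, the files' mm10 build; 250 bases before to 50 after a transcript start) were present for 5 of the 9 genes, with 12 windows in all: 6 of Sgk1, 3 of Tsc22d3 and 1 each of Scnn1b, Scnn1g and Nr3c2. Scnn1a, Nr3c1, Hsd11b2 and Nedd4l had no entry. The whole palindrome stood in 1 of the 12 windows, an Sgk1 window, and in 3 of 32851 windows of all genes (0.00913%). The 6-base core alone, on either strand and counting the cores inside the palindrome, stood in 4 of the 12 windows, 3 of Sgk1 and 1 of Tsc22d3, and in 19.0% of all windows. The Sgk1 stretch is shown because it carries the palindrome, the Tsc22d3 stretch because it carries a core, and those of Scnn1b and Scnn1g because these genes fell in KO and hold neither. Each is read 5′ to 3′ on the gene's strand and ends at the base before a transcript start or, for Tsc22d3, before a GENCODE M21 exon, and capitals mark the core on either strand.
Sgk1, chr10:21993640-21993889, plus strand: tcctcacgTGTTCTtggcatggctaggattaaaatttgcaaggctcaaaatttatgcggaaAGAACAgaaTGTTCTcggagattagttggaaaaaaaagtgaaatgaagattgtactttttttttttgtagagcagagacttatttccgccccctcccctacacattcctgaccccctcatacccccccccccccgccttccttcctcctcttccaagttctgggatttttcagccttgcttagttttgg
Tsc22d3, chrX:140600660-140600772, minus strand: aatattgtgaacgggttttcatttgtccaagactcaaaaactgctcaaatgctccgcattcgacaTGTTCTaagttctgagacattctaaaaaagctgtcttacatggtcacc
Scnn1b, chr7:121864788-121865037, plus strand: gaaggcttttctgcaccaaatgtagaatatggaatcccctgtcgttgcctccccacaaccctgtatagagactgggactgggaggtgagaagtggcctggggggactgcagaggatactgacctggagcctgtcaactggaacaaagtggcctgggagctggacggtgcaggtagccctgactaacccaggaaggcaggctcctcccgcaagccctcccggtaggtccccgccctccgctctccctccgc
Scnn1g, chr7:121734229-121734478, plus strand: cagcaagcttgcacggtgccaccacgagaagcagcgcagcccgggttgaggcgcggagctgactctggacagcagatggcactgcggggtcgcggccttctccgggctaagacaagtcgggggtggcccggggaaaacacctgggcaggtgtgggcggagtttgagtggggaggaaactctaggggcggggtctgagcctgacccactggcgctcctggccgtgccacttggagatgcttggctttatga
In the Sgk1 stretch the palindrome begins 189 bases before the start at position 21993890 of chromosome 10, and a further core begins 242 bases before it. The core of Tsc22d3 begins 185 bases before the start at position 140600522 of chromosome X. A match of letters does not show that a receptor binds there.

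The KO libraries were deeper (41.49 to 52.30 M gene counts, where M stands for mega) than the WT libraries (19.79 to 35.99 M). Levels are given as CPM, the counts of a gene in each M counts of its library, with TMM scaling over the 10 libraries. Ehhadh itself had a mean of 258 CPM in KO (SD 64.3) and of 2472 CPM in WT (SD 625). Every KO library lay below every WT library. Transcript from the locus was thus still counted in KO. The wild-type 129S2_SvPasCrl and DBA_2J libraries lay between the groups, at 787 and 795 CPM. Of 15547 genes tested with edgeR's quasi-likelihood test, 982 were called higher in KO (6.32%) and 728 lower (4.68%) at an adjusted p under 0.05. With upper quartile scaling the balance turned, to 832 higher and 938 lower. The median log2 fold change of all tested genes was −0.01.

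Transcripts of the β and γ sodium channel subunits fell in KO kidney, and so did that of Hsd11b2. The receptors, Sgk1, Nedd4l and Tsc22d3 did not pass the test. In all, 3 of the 9 genes were called lower, against 4.68% of all tested genes. None was called higher in edgeR, DESeq2 or voom, and none was higher at an unadjusted p under 0.05 in edgeR.

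**Figure D1:**
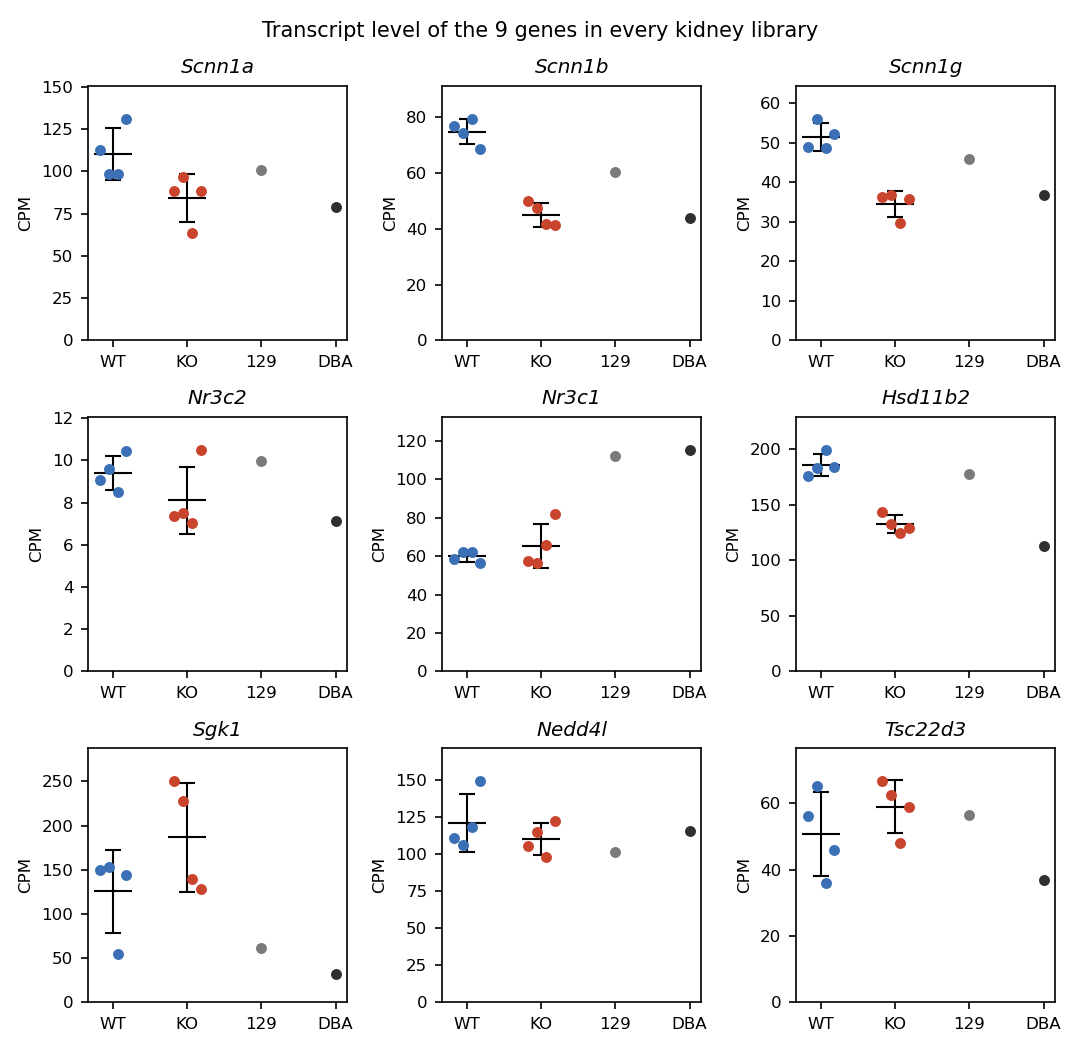
Level of each of the 9 genes in CPM (vertical axes from 0), 1 point per library for WT and KO animals of C57BL/6N and for the single 129S2_SvPasCrl (129) and DBA_2J (DBA) animals; bars show mean ± SD of 4. The KO points lie below all WT points for Scnn1a, Scnn1b, Scnn1g and Hsd11b2 and overlap the WT points for the other 5 genes.

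The 3 channel subunits were read first. Scnn1b (chromosome 7, 121865038 to 121918728, plus strand, mm10; 15 distinct exon entries), which encodes the β subunit, read 50.04, 47.4, 41.6 and 41.3 CPM in KO replicates 1 to 4 and 76.8, 74.5, 79.3 and 68.7 CPM in WT replicates 1 to 4. Every KO library was below every WT library, and the gap between the groups was wider than the spread within either. The fall was 1.66-fold (−0.73 on the log2 scale with an SE of 0.08; adjusted p = 0.000268 in edgeR). Scnn1g (chromosome 7, 121734507 to 121768477, plus strand; 13 exon entries), its neighbour on the chromosome and the gene of the γ subunit, read 36.2, 36.7, 29.7 and 35.8 CPM in KO and 49.1, 56.0, 48.6 and 52.3 CPM in WT. These groups did not overlap either, and KO replicate 3 stood below the other KO libraries. The fall was 1.49-fold (log2 fold change −0.57, SE 0.08; edgeR adjusted p = 0.00121). In bulk tissue, fewer cells of a type and less RNA per cell cannot be told apart.

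Scnn1a (chromosome 6, 125321340 to 125344942, plus strand; 12 exon entries) encodes the α subunit, whose transcript is the one most directly raised by aldosterone in the collecting duct. It read 88.3, 96.5, 63.5 and 88.4 CPM in KO and 112, 98.2, 98.5 and 131 CPM in WT. The highest KO library was just under the lowest WT library, and the spread within each group was wide. The log2 fold change of −0.39 (SE 0.13) did not pass in edgeR (adjusted p = 0.0805), while DESeq2 called it (−0.38, adjusted p = 0.0311). Groups without overlap in this direction occurred in 7.97% of all tested genes, and in 4 of the 9 genes here. The opposite order, KO above all WT libraries, occurred in 9.80% of all tested genes and in 0 of the 9, and either order in 17.8%.

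Hsd11b2 (chromosome 8, 105518746 to 105523988, plus strand; 5 exon entries) is a defining transcript of cells that respond to aldosterone. It read 144, 132, 125 and 129 CPM in KO and 176, 183, 199 and 184 CPM in WT. The groups were well apart, with SDs of 8.14 and 9.62 CPM around means of 132 and 186 CPM. The fall was 1.40-fold (log2 fold change −0.49, SE 0.06; edgeR adjusted p = 0.000849). The 3 calls were kept when any single library was left out (highest edgeR adjusted p 0.00167 for Scnn1b, 0.00453 for Scnn1g and 0.00367 for Hsd11b2) and when every library was thinned to 19.79 M counts.

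Sample titles come with or without a leading E, and each form holds 2 KO and 2 WT animals. Replicates 3 and 4 of each genotype carry the E, and replicates 1 and 2 do not. The labels do not say what the form marks. The log2 difference between genotypes in animals with and without the E was −0.83 and −0.63 for Scnn1b, −0.63 and −0.52 for Scnn1g, −0.59 and −0.38 for Hsd11b2, and −0.60 and −0.19 for Scnn1a. The sign was thus the same in both forms for these 4 genes. In the edgeR test of title form by genotype, the adjusted p of the 9 genes ran from 0.738 to 0.956.

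Neither receptor gene passed the test. Nr3c2 (chromosome 8, 76902508 to 77243639, plus strand; 9 exon entries), the mineralocorticoid receptor, was the least abundant of the 9 genes. It read 7.36, 7.52, 7.04 and 10.5 CPM in KO and 9.06, 9.58, 8.52 and 10.4 CPM in WT. The 3 other KO libraries were below all WT libraries, while KO replicate 4 was the highest of the 8. The log2 fold change was −0.21 (SE 0.14; edgeR adjusted p = 0.365), and −0.36 without KO replicate 4 (adjusted p = 0.0592). Nr3c1 (chromosome 18, minus strand; 8 exon entries), the glucocorticoid receptor, which most kidney cells carry, read 57.7, 56.6, 65.6 and 81.7 CPM in KO and 58.7, 62.3, 62.0 and 56.2 CPM in WT. Its groups overlapped (log2 fold change 0.13, SE 0.10; edgeR adjusted p = 0.484).

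Sgk1 (chromosome 10, 21882184 to 21999902, plus strand; 19 exon entries), whose promoter stretch with the palindrome is printed above, varied most among the 9 genes. KO libraries read 250, 228, 140 and 129 CPM and WT libraries 150, 153, 55.1 and 144 CPM. KO replicates 1 and 2 were above every other library, KO replicates 3 and 4 lay within the WT range, and WT replicate 3 stood far below the rest. The log2 fold change of 0.57 had an SE of 0.30 and did not pass in edgeR (adjusted p = 0.262). Without WT replicate 3 it was 0.33 (adjusted p = 0.417). In the 4 animals without a leading E it was 0.66 and passed in edgeR (adjusted p = 0.000143), and in the 4 with it 0.43 and did not (adjusted p = 0.634). The difference between the forms did not pass (edgeR, adjusted p = 0.956).

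Nedd4l (chromosome 18, plus strand; 32 exon entries), the ubiquitin ligase that acts on ENaC, read 105, 115, 97.7 and 122 CPM in KO and 111, 106, 118 and 149 CPM in WT. The groups overlapped (log2 fold change −0.14, SE 0.11; edgeR adjusted p = 0.468). Tsc22d3 (chromosome X, 140539529 to 140600522, minus strand; 5 exon entries) encodes GILZ, a leucine zipper protein induced by corticosteroids. It read 66.7, 62.4, 48.1 and 58.8 CPM in KO and 56.0, 65.2, 35.9 and 45.8 CPM in WT. WT replicate 3 was again the lowest library of its group, and the groups overlapped (log2 fold change 0.22, SE 0.16; edgeR adjusted p = 0.428). The exons of the 9 genes share no bases with those of another gene in the counting annotation.

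Levels of different genes were compared only per exon length, as RPKM (CPM per kilobase of exon). In WT, Hsd11b2 was highest at 100.3 ± 5.2 RPKM (SD, n = 4). Scnn1a (31.5 ± 4.4), Sgk1 (30.2 ± 11.3) and Scnn1b (26.3 ± 1.59) followed. Within 1 SD of Sgk1 lay Scnn1a, Scnn1b and, below them, Tsc22d3. Tsc22d3 (20.4 ± 5.09 RPKM), Scnn1g (17.4 ± 1.16) and Nedd4l (14.02 ± 2.26) came next, Nr3c1 read 9.45 ± 0.459 RPKM and Nr3c2 2.30 ± 0.199. In KO the order of the channel genes was the same, at 24.1 ± 4.08 RPKM for Scnn1a, 15.8 ± 1.52 for Scnn1b and 11.7 ± 1.11 for Scnn1g, and Sgk1 read 44.9 ± 14.7.

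Ratios of reads per length within a library do not depend on scaling, and 6 were compared between genotypes. The ratio of Scnn1a to Scnn1b was 1.44, 1.66, 1.24 and 1.74 in KO and 1.19, 1.07, 1.01 and 1.55 in WT. The groups overlapped (log2 difference 0.34; exact two-sided permutation p = 0.114, adjusted over the 6 ratios 0.274). The log2 ratio of Scnn1a to Scnn1g differed by 0.18 and that of Scnn1b to Scnn1g by −0.16, both with overlap (exact permutation p = 0.229 each). The ratio of the mineralocorticoid to the glucocorticoid receptor gene was 0.198, 0.206, 0.166 and 0.199 in KO and 0.239, 0.238, 0.213 and 0.287 in WT. Every KO ratio was below every WT ratio (log2 difference −0.34; exact permutation p = 0.0286, the smallest that 4 against 4 allow), and the adjusted value of 0.172 did not pass. The log2 ratio of Hsd11b2 to Nr3c2 differed by −0.26 and that of Sgk1 to Nedd4l by 0.75, and neither passed (exact permutation p = 0.286 and 0.143).

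Markers of the same tubule segments were also lower in KO. Of 7 principal cell markers, 4 were called lower and none higher, with a median log2 fold change of −0.46. Among all tested genes, 4.68% were called lower and 6.32% higher. The water channel gene Aqp2 read 128, 111, 119 and 127 CPM in KO and 261, 437, 152 and 183 CPM in WT. Fxyd4, a small subunit of the sodium pump in the collecting duct, fell 1.54-fold (log2 fold change −0.63, SE 0.07; edgeR adjusted p = 0.00029), and the vasopressin receptor gene Avpr2 1.37-fold (−0.46, SE 0.09; adjusted p = 0.0099), though 77 of its exon bases overlap Arhgap4. Aqp2 and Aqp3 were the other genes called lower (−1.09, SE 0.26, and −0.57, SE 0.12). Gata3, Elf5 and Aqp4 did not pass. The summed level of the list ran from 272 to 313 CPM in KO and from 377 to 700 CPM in WT.

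**Figure D2:**
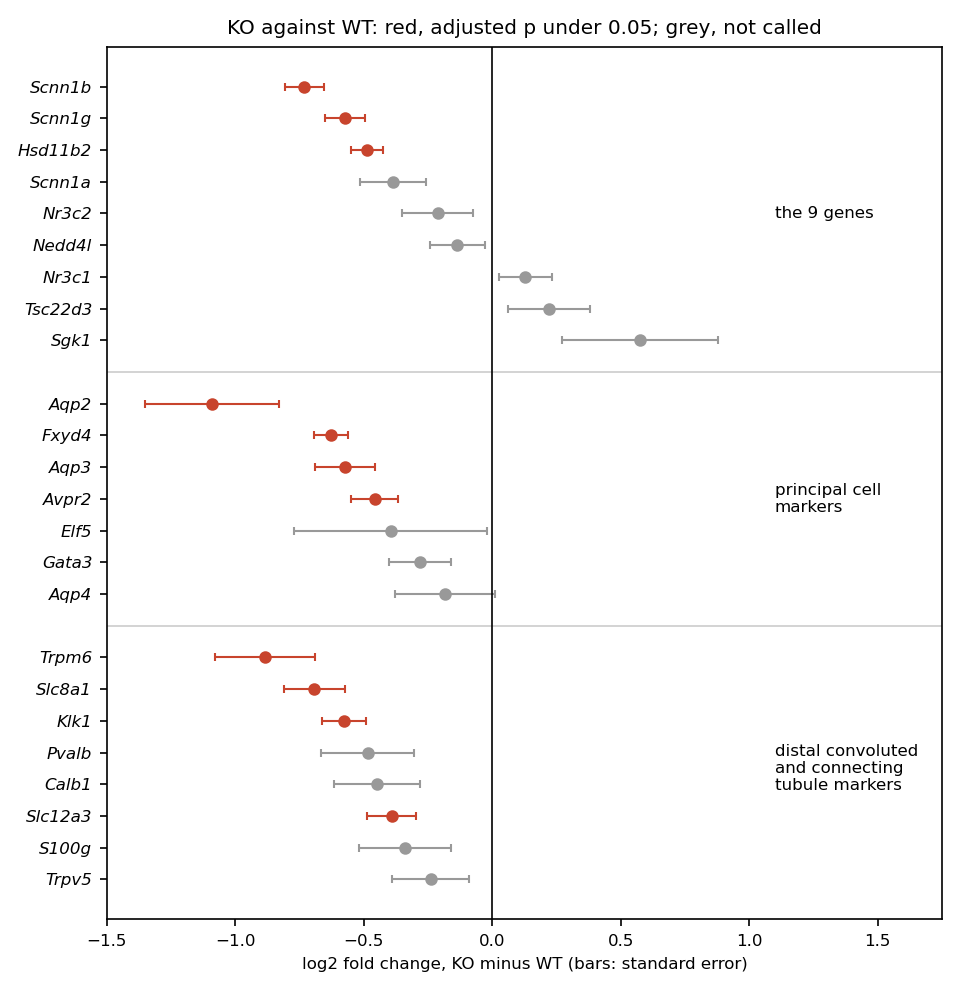
Log2 fold change of KO over WT with its standard error for the 9 genes and for markers of principal cells and of the distal convoluted and connecting tubule (edgeR, n = 4 each); red points were called at an adjusted p under 0.05. Scnn1b, Scnn1g and Hsd11b2 lie at −0.73, −0.57 and −0.49, within the range of the marker genes called lower.

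The channel genes, Nr3c2 and Hsd11b2 were therefore set against the mean log2 CPM of the 7 principal cell markers in the same library. That mean was 4.59 ± 0.06 in KO and 5.05 ± 0.23 in WT (SD, n = 4 each), a difference of −0.46. On this relative log2 scale Scnn1b read 1.08, 1.0, 0.70 and 0.81 in KO and 1.37, 1.01, 1.49 and 0.82 in WT. The groups overlapped (difference −0.27; exact two-sided permutation p = 0.171, adjusted over 5 genes 0.429). The relative difference was −0.11 for Scnn1g, −0.03 for Hsd11b2, 0.07 for Scnn1a and 0.23 for Nr3c2, and none passed (exact permutation p = 0.514, 0.886, 0.629 and 0.143). A miss of the threshold does not show equal levels, since the SDs within groups on this scale ran from 0.12 to 0.32. With the markers summed in CPM, where Aqp2 weighs most, the relative differences of Scnn1g and Hsd11b2 had the other sign, at 0.15 and 0.24, and did not pass either (exact permutation p = 0.457 and 0.371). The shortfall of Scnn1b shrank on that reference, and the differences of Scnn1a and Nr3c2 grew without passing.

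**Figure D3:**
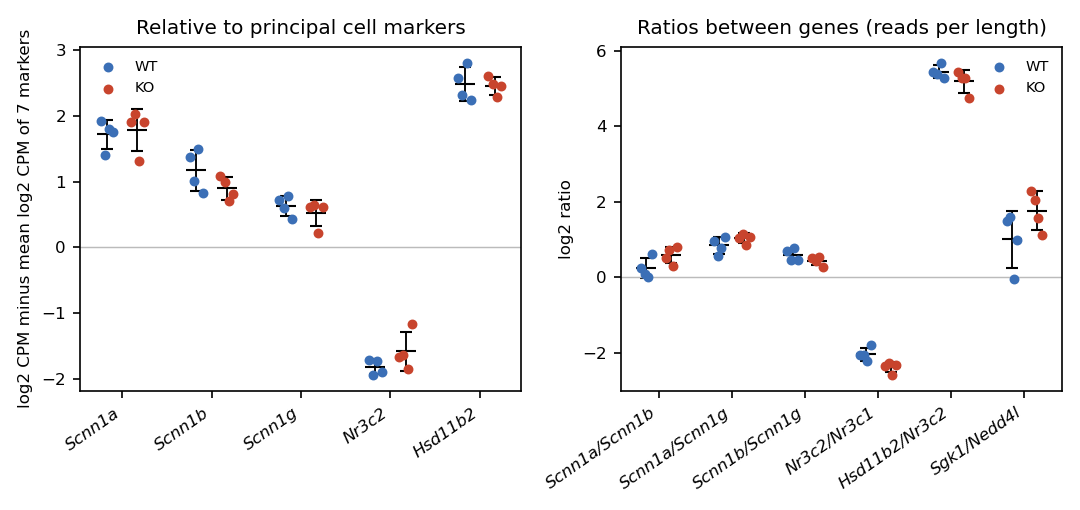
Left, log2 CPM of 5 genes minus the mean log2 CPM of 7 principal cell markers in each library; right, log2 ratios of reads per length between pairs of the 9 genes. Points are libraries, bars mean ± SD of 4; WT and KO overlap in each comparison except the ratio of Nr3c2 to Nr3c1, at −2.04 ± 0.18 in WT and −2.38 ± 0.14 in KO.

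Marker lists of other cell types held calls as well. These, and those of the next paragraph, are to be read against the 4.68% lower and 6.32% higher among all tested genes. A single call in a short list does not show that a cell type moved. Of 8 markers of the distal convoluted and connecting tubule, 4 were lower and none higher (median −0.47; summed level 2510 to 3140 CPM in KO and 3860 to 4140 CPM in WT), among them the kallikrein gene Klk1 (log2 fold change −0.58, SE 0.09) and the sodium-calcium exchanger gene Slc8a1 (−0.69, SE 0.12). Of 10 intercalated cell markers, 8 were lower (median −0.54; 429 to 492 CPM against 652 to 710 CPM), led by the proton pump genes Atp6v1g3 (−0.70, SE 0.08) and Atp6v1b1 (−0.57, SE 0.07). Of 6 thick ascending limb markers, Slc12a1 alone was lower (−0.44, SE 0.11). When any of KO replicates 1 to 3, or WT replicate 1 or 3, was left out, this call was lost (edgeR adjusted p = 0.0596 to 0.0786). The summed level was 2760 to 3930 CPM in KO and 3220 to 3930 CPM in WT. Of 9 proximal tubule markers 3 were lower, Slc22a8 (−0.44, SE 0.07), Slc13a3 (−0.35, SE 0.09) and Lrp2, and that count was 1 to 4 with a library left out. With DESeq2, 1 gene of this list was called higher. Leaving out KO replicate 1 or 2, or any WT replicate but the second, ended the call of Slc13a3 (edgeR adjusted p = 0.0544 to 0.0765). The summed level of that list was 11800 to 14200 CPM in KO and 13800 to 14900 CPM in WT. Injured tubule markers rose in 4 of 6, with Havcr1 going from 1.80 ± 0.563 to 44.6 ± 20.8 CPM and Sox9 from 0.602 ± 0.202 to 11.6 ± 4.2 CPM. The single wild-type 129S2_SvPasCrl library also read high for Havcr1, at 62.7 CPM, but not for Sox9, at 0.83 CPM. DBA_2J read 4.07 CPM for Havcr1 and 0.479 CPM for Sox9. The summed level of the injury list, 253 to 459 CPM in KO and 248 to 455 CPM in WT, overlapped. Clu made up most of that sum in every library, at 173.3 to 344.2 CPM in KO and 237.5 to 439.2 CPM in WT. It did not pass (−0.455, SE 0.226), so the sum says little about the 4 markers that rose. The part of these cell types in the results for the 9 genes was not tested.

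Among the remaining cell types, smooth muscle genes fell in 2 of 7 markers of fibroblasts and smooth muscle, Myh11 (−0.88, SE 0.10) and Acta2 (−0.62, SE 0.08), with summed levels of 138 to 176 CPM in KO and 187 to 201 CPM in WT. The macrophage gene Csf1r fell (−0.64, SE 0.08), 1 of 5 tested (list median 0.14; summed level 65.3 to 82.3 against 86.1 to 94.4 CPM), while Cd68 (0.65, SE 0.24), C1qb (0.21, SE 0.12), C1qa (0.14, SE 0.14) and C1qc (−0.04, SE 0.15) did not pass. Csf1r was the largest part of the macrophage sum, at a mean of 36.7 CPM in KO and 57.2 CPM in WT. Without KO replicate 2, 1 gene of the macrophage list was called higher. The endothelial gene Kdr fell (−0.32, SE 0.09), 1 of 5 (2 with DESeq2), a call lost without any 1 library except KO replicate 3 (edgeR adjusted p = 0.0615 to 0.0972). No podocyte (5 tested) or lymphocyte (4 tested) marker passed in edgeR, and at an unadjusted p under 0.05 the only one was Cd3e (log2 fold change 1.42). Without WT replicate 1, 1 lymphocyte gene was called higher. The adrenal cortex makes aldosterone and can be carried along with a kidney. Its defining gene Cyp11b2, aldosterone synthase, had 0 reads in all 10 libraries, which allows at most 0.152 CPM in the shallowest, and Star, the 1 of 7 adrenal markers that passed the filter on low counts, read 4.47 CPM in KO and 5.46 CPM in WT and did not pass the test. KO replicate 2 had traces of other adrenal enzyme genes, at 0.812 CPM for Cyp21a1, 0.454 for Cyp11b1 and 0.286 for Cyp11a1, while the other KO libraries had 0 reads of these 3 genes except for Cyp11a1 in KO replicate 3 (0.0861 CPM). WT replicate 4 read 0.0948 CPM for Cyp11b1 and 0.190 for Cyp11a1. The part of this trace in the levels of KO replicate 2 was not tested. The summed level of the list was 3.72 to 7.02 CPM in KO and 5.15 to 6.4 CPM in WT.

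The wider pathway lists below held calls at shares to be read against the 4.68% lower and 6.32% higher among all tested genes. In the list of proteases, protease inhibitors and ubiquitin enzymes that act on ENaC, St14, the membrane protease matriptase, was lower (52.9 ± 2.82 CPM in KO, 66.2 ± 1.97 in WT; log2 fold change −0.32, SE 0.06), and the other 10 did not pass, including the channel-activating protease gene Prss8 (−0.13, SE 0.09) and Usp2 (0.10, SE 0.20). The list's median was 0.02, and 2 of its genes were lower without KO replicate 4. A count of 1 in 11 or in 15 is near the share among all genes. Of 15 genes of the SGK1, mTORC2 and WNK kinases and their partners, Wnk4, a kinase that regulates distal salt transport, was lower (−0.36, SE 0.08; edgeR adjusted p = 0.0196), with a median of −0.01. Its call was lost without KO replicate 2 (adjusted p = 0.0547) or WT replicate 1 (0.0535), and 3 genes of this list were lower with DESeq2, with upper quartile scaling, and without KO replicate 4 or WT replicate 2. In the other direction, 1 gene of the list was higher with DESeq2 and without KO replicate 1. None of 16 receptor chaperones and coregulators was called in edgeR (2 at an unadjusted p under 0.05; median −0.01). Crebbp, a coactivator, had the smallest p (0.24, SE 0.07; adjusted p = 0.0552) and was called with DESeq2 (0.0334) and without KO replicate 3 (0.0489).

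Of 10 genes of distal sodium and potassium transport 3 were lower and none higher (median −0.27), and 5 were lower without KO replicate 4. Among them were Bsnd, which encodes the channel subunit barttin (34.4 ± 1.9 CPM in KO, 49.7 ± 6.92 in WT; log2 fold change −0.54, SE 0.09), and Kcnj1, which encodes the potassium channel ROMK (−0.48, SE 0.10). Atp1b1, the β subunit gene of the sodium pump, did not pass (0.02, SE 0.12). Of 4 enzymes of corticosteroid metabolism, Srd5a2, a steroid reductase, was lower (1.36 ± 0.419 CPM in KO, 4.03 ± 1.98 in WT), with a list median of −0.28. Hsd11b1, which regenerates active glucocorticoid, read −0.59 (SE 0.30) and did not pass.

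Of 17 listed transcripts known to respond to corticosteroids, besides Sgk1 and Tsc22d3, 4 were called higher in KO, 1 lower, and 12 did not pass. Ndrg2 was the only 1 of the list with a negative log2 fold change, and the list's median was 0.35. The metallothionein genes Mt1 (130 ± 17.7 to 215 ± 26.1 CPM; log2 fold change 0.73, SE 0.11) and Mt2 (0.56, SE 0.13) rose, and Ndrg2, an early aldosterone-induced transcript, fell (119 ± 11.2 to 67.7 ± 10.8 CPM; −0.81, SE 0.11). Klf9, a transcription factor gene, also rose (0.50, SE 0.14). The count of higher genes was 1 without KO replicate 2, and 2 without KO replicate 1 or WT replicate 3. The call of Mt2 was lost without KO replicate 2 (edgeR adjusted p = 0.0509). In animals with a leading E alone neither passed in edgeR, at 0.42 for Mt1 (adjusted p = 0.0864) and 0.23 for Mt2 (0.372), against 1.04 and 0.90 without the E, where both passed. The edgeR test of title form by genotype called neither gene. Metallothioneins respond to metals and stress as well as to steroid.

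Several of these transcripts varied between animals of 1 genotype, in part along the form of the sample title. Replicates 1 and 2 of each genotype had titles without a leading E, and replicates 3 and 4 had titles with it. The part of the title form in this spread was not tested. The following 3, and Klf9 in the plot, were chosen after their values were seen. Zbtb16, a strongly glucocorticoid-induced gene, read 25.3, 35.2, 3.81 and 8.66 CPM in KO and 9.31, 6.89, 1.90 and 20.5 CPM in WT. Fkbp5, a chaperone of the receptors, read 196, 231, 76.3 and 126 CPM in KO and 121, 90.1, 66.5 and 177 CPM in WT. In both genes KO replicates 1 and 2 were the highest of their group, as for Sgk1, and WT replicate 3 was the lowest library of all 8. The whole list of 17 was more mixed. KO replicate 1 was the highest KO library in 4 of 17 genes and KO replicate 2 in 10, and WT replicate 3 was the lowest WT library in 6, as was WT replicate 2. Neither gene passed the test (log2 fold change 0.92, SE 0.69, and 0.47, SE 0.34). Per1, a clock gene that steroid also induces, was lowest in WT replicate 3 at 48.9 CPM and next in WT replicate 4 at 51.1 CPM. WT replicates 1 and 2, without the E, read 93.4 and 80.3 CPM. In KO the title forms overlapped for Per1, at 101.8, 93.7, 85.1 and 105.2 CPM in replicates 1 to 4.

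**Figure D4:**
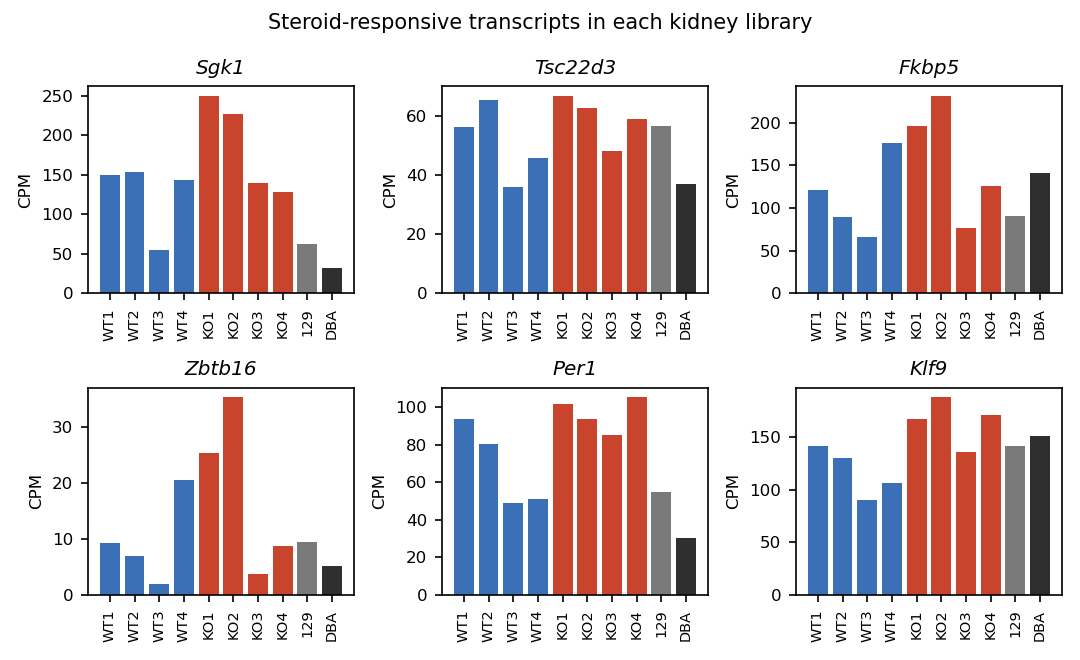
CPM of 6 steroid-responsive transcripts, 4 of them chosen after their values were seen, in each library (bars from 0; WT blue, KO red, 129S2_SvPasCrl grey, DBA_2J black). WT replicate 3 is the lowest C57BL/6N library for all 6, and KO replicates 1 and 2 are the highest KO libraries for Sgk1, Tsc22d3, Fkbp5 and Zbtb16 but not for Per1 or Klf9; over the whole list of 17, WT replicates 2 and 3 were each the lowest WT library in 6.

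The single libraries of the other strains allow no test. The DBA_2J library read below all 4 WT libraries for Scnn1a (78.7 CPM), Scnn1b (43.8), Scnn1g (36.9), Nr3c2 (7.12), Hsd11b2 (112) and Sgk1 (32.3). Its Scnn1b, Scnn1a and Nr3c2 levels lay inside the range of the KO libraries, Scnn1g just above it and Hsd11b2 below it. The 129S2_SvPasCrl library read 60.4 CPM for Scnn1b, between the KO and the WT libraries, 45.9 CPM for Scnn1g and 178 CPM for Hsd11b2, the last within the WT range. Nr3c1 was the gene in which both strains stood apart in the same upward direction, at 112 CPM in 129S2_SvPasCrl and 115 CPM in DBA_2J, 1.87 and 1.92 times the WT mean of 59.8 CPM. Sgk1 read 62.1 CPM in 129S2_SvPasCrl, above WT replicate 3 and below the others, and 32.3 CPM in DBA_2J, 0.257 of the WT mean.

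Such departures were common across the transcriptome. Of the 9 genes, 4 lay outside the WT range in 129S2_SvPasCrl and 7 in DBA_2J, against 64.6% and 72.5% of all tested genes. A difference of over 1.5-fold from the WT mean was seen in 2 of 9 genes in 129S2_SvPasCrl (21.6% of all genes) and in 4 of 9 in DBA_2J (29.2%). The ratio of Nr3c2 to Nr3c1 was 0.138 in 129S2_SvPasCrl and 0.0958 in DBA_2J, under every C57BL/6N library.

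**Figure D5:**
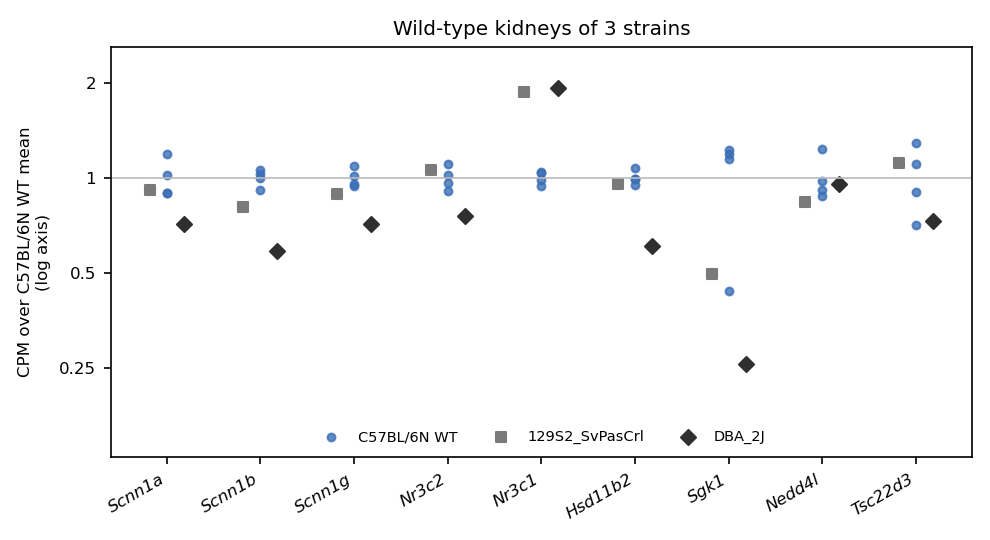
Level of each gene in wild-type kidneys relative to the C57BL/6N WT mean (log axis), with the 4 WT animals as circles and the single 129S2_SvPasCrl and DBA_2J animals as squares and diamonds. Nr3c1 lies at 1.87 and 1.92 in the other strains, and Sgk1 of DBA_2J at 0.257.

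Among 13763 genes with a mean of 1 CPM or more, those most like each of the 9 over the 10 libraries were found by Pearson correlation of log2 CPM, given as a description because the libraries share genotype and strain. Scnn1b was followed most closely by Tmem213 (r = 0.992), Ndufb5 (0.969) and the potassium channel subunit gene Kcne1 (0.968). Tmem213 read 46.5 CPM in KO and 78.6 CPM in WT. Scnn1a was most like the kinase gene Wnk1 (0.953), Kcnab2 (0.934) and the defensin gene Defb1 (0.930), and Scnn1g was close to Gm2115 (0.945) and Heph (0.944). Hsd11b2 was most like Syn2 (0.961), Emb (0.959) and Mapk15 (0.956). Nr3c2 was close to Twsg1 (0.915) and Fam229b (0.904). Nr3c1 was most like Inpp5f (0.979), Drosha (0.978) and Ankrd13c (0.977), which were also higher in the strain libraries (186 and 236 CPM for Ankrd13c, against a WT mean of 99.7 CPM). Sgk1 was most like Cited4 (0.962), Adamtsl2 (0.949) and the ferritin gene Fth1 (0.949). The closest match of Nedd4l was Dak (0.923) and that of Tsc22d3 was Hp1bp3 (0.904).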

How the data were processed

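Per the labels' protocols, polyadenylated kidney RNA was sequenced in single-end reads, and the submitters' processing notes name STAR, featureCounts, edgeR and mm10 (GRCm38). Reads were assigned to exons by gene with featureCounts 1.5.2, per the file headers, from primary alignments, with no strand option and with reads shared by overlapping genes given to each. The authors deposited raw counts per library and joined (equal in all 10 columns), exon lengths, and normalized log2 values of 13645 genes. Depth was 19.79 M counts or more, so 1 CPM is at least 19.79 counts. Replicates differed beyond counting noise in every pair (lowest chi-square over its degrees of freedom 10.93).

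Genotype was tested on the counts of 8 libraries, all C57BL/6N, with edgeR 4.0.16 under R 4.3.3 (filterByExpr, TMM, glmQLFTest), adjusted by Benjamini-Hochberg over 15547 genes and called under 0.05; the script was tested on simulated data. The SE is the size of the log2 fold change over the square root of F. Log2 CPM used a prior count of 2. DESeq2 1.42.0, voom in limma 3.58.1, other scalings, filters, thinning and left-out libraries were alternatives. Replicate numbers follow accession order. Groups came from labels on genotype and strain.

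The 9 genes and the 18 lists (154 of 155 entries matched) were chosen with earlier results of these data known. Named are the 9 genes, Ehhadh, up to 3 called genes per pathway list or the one with the smallest p, up to 2 per marker list, and 3 most similar genes each; others complete small counts, belong to the same complex or carry a marker's role, or were chosen after their values were seen. A few genes named by this rule are not reported here.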

Additional observations from a re-analysis of the deposited data

Results flagged for a closer look

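In 90 groups of 4 libraries, a library was called stray when its gap to the nearest other was nearly the group's whole range (Dixon's critical value), and chance gives about 1 in 20; 7 were stray. Sgk1 read 55.1 CPM in WT replicate 3, with the other WT libraries from 144 to 153 CPM. Scnn1g read 29.7 CPM in KO replicate 3, and it was also low there relative to the principal cell markers (log2 0.22, against 0.61 to 0.64 in the other KO libraries). Nr3c2 read 10.5 CPM in KO replicate 4, with the others from 7.04 to 7.52 CPM. Among the list genes, Srd5a2 read 6.99 CPM in WT replicate 2, Atp6v1g3 35.5 CPM in WT replicate 4 and Atp6v1b1 77.0 CPM in KO replicate 4.

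Nr3c1 moved in opposite directions in the 2 forms of sample title. Both KO animals with a leading E were above both WT animals (log2 difference 0.31), and both KO animals without it were below theirs (−0.08). The edgeR test of title form by genotype gave an adjusted p of 0.738 (unadjusted 0.0248), so the difference did not pass. That test called 0 genes in all, with 1035 at an unadjusted p under 0.05, and no other tool was run for it.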

How the results depend on the processing

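Of 171 refits of the 9 genes, 166 kept their direction and their side of the threshold. The exceptions were Scnn1a with DESeq2 (−0.38, adjusted p = 0.0311), Scnn1g in titles with a leading E alone (−0.62, edgeR adjusted p = 0.075), and, in titles without it alone, Sgk1 (0.66, called) and the reversed Nr3c1 (−0.083) and Nedd4l (0.027). With 1 library left out, log2 fold changes ran from −0.46 to −0.27 for Scnn1a, −0.79 to −0.69 for Scnn1b, −0.60 to −0.50 for Scnn1g, −0.53 to −0.45 for Hsd11b2, −0.36 to −0.15 for Nr3c2, 0.01 to 0.19 for Nr3c1, 0.33 to 0.72 for Sgk1, −0.19 to −0.02 for Nedd4l and 0.09 to 0.37 for Tsc22d3. Genes called over the whole table then numbered 610 to 916 higher and 381 to 722 lower, and 92 higher and 51 lower in titles with a leading E alone, a fit with 4 libraries. The log2 ratio of Nr3c2 to Nr3c1 differed by −0.41 to −0.26, and 3 against 4 libraries cannot go below 0.0571 in the exact permutation test. Relative to principal cell markers, the difference ran from −0.035 to 0.23 for Scnn1a and from −0.11 to 0.084 for Hsd11b2, and with summed markers it was 0.15 for Scnn1g and 0.24 for Hsd11b2. The difference of Scnn1b shrank with summed markers. The cause of these shifts was not tested. No paired analysis was possible because replicate numbers follow accession order and the numbers in the titles are not stated to pair animals. The title form as a term changed no call of the 9 genes.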
